A study of Mus musculus with 3 samples.

Results

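A set of 9 genes that sensory neurons of the dorsal root ganglion express was followed in RNA of spinal cord from mouse embryos at embryonic day 13.5. They are Ntrk2, Ntrk3, Ret, Runx1, Runx3, Pou4f1, Avil, Scn10a and Scn9a, and they were found by exact gene name, so that 9 of the 51826 genes in the deposited table were taken. All embryos had the C57BL/6 strain background, and each genotype gave 1 library. The dE3 library came from Nestin-Cre embryos with a floxed exon 3 of Ctnnb1, the β-catenin gene, and is labelled a gain of function. The cKO library came from Nestin-Cre embryos with floxed exons 2 to 6 of the same gene and is labelled a loss of function, and the third library was wild type (WT). Nestin-Cre recombines mainly in progenitors of the nervous system, and cells without Cre activity keep the intact allele. The labels do not give the number of embryos behind a library or say whether ganglia were left on the cord. The question put to these genes is how much ganglion RNA each library held.

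Dorsal root ganglia lie beside the spinal cord, arise from the neural crest and carry touch, position, temperature and pain signals through axons that enter the dorsal cord. Their neurons divide early into classes that depend on different growth factor receptors, with Ntrk2 and Ret for mechanoreceptors and Ntrk3 for proprioceptors, and Runx1 and Runx3 help to fix these classes. A cord dissected with ganglia or their roots attached carries RNA of these neurons and of the glia around them.

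The 9 genes differ in where else they are read. Runx3 (proprioceptor transcription factor), Avil (advillin, an actin-binding protein of peripheral neurons), Scn10a (the sodium channel Nav1.8 of nociceptors) and Scn9a (the sodium channel Nav1.7 of peripheral neurons) were taken as mainly ganglion genes. Ntrk2, Ntrk3, Ret, Runx1 and Pou4f1 were taken as shared, since neurons or glia of the cord also express them. For the mainly ganglion genes whose window held a core that RUNX proteins bind, the 250 bases before the annotated start are shown from the RefSeq promoter table (GRCm38.p6), where 7 of the 9 genes matched. Capitals mark this core, TGTGGT or ACCACA, searched on both strands.
Avil upstream, chr10:127000459-127000708, plus strand: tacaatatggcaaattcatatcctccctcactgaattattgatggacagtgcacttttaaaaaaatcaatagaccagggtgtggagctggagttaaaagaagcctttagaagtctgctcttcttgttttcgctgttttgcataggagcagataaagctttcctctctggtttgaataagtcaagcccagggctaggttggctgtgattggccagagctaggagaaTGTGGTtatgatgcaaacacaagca
Runx3 upstream, chr4:135120395-135120644, plus strand: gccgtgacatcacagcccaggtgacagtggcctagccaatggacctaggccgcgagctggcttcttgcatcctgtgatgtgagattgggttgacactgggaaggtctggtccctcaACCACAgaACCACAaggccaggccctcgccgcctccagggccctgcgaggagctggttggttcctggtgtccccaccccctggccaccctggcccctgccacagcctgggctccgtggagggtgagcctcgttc

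The Avil window held the RUNX core once, 25 bases before the start, and the Runx3 window shown held it at 134 and at 126 bases before the start. The window of Ntrk2 held it once, 234 bases before the start. No match lay in the windows of Scn10a, Scn9a, Pou4f1 or Runx1, nor in the second window of Runx3. The core occurs in 14.0% of the 32851 promoter windows of the table. The TCF/LEF core CTTTGA or TCAAAG, which factors that work with β-catenin bind, was in none of the windows of these 7 genes and in 13.8% of all windows. A match is a description of letters and says nothing of binding.

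The neurotrophin receptors come in forms with and without the tyrosine kinase, and the choice is made by splicing after a shared stretch. The point where the forms part is shown for the main transcripts of each gene (GENCODE vM21, GRCm38), with the last 18 shared coding bases in lower case and the first 36 bases of each form's own coding sequence in capitals. The capitals lie at chr13:58985802-58985837 for Ntrk2-201, chr13:58932023-58932058 for Ntrk2-202, chr7:78260379-78260414 for Ntrk3-201 and chr7:78304391-78304426 for Ntrk3-202.
Ntrk2-201: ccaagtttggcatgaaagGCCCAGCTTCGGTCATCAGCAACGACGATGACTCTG
Ntrk2-202: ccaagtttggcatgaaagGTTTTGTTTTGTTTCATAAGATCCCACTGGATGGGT
Ntrk3-201: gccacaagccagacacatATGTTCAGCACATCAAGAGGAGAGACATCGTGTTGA
Ntrk3-202: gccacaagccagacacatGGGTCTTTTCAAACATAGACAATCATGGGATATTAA

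Ntrk2-201 encodes the kinase form with 821 codons, whereas Ntrk2-202 ends 38 coding bases, stop codon included, after the split and has 476 codons. Ntrk3-201 encodes 825 codons with the kinase, and Ntrk3-202 has 612 codons and lacks it. The values of these forms are given with the receptors.

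The 3 libraries were deep and similar in size, with 34790053 estimated counts in dE3, 33048837 in cKO and 32167470 in WT. A ratio here is that of counts scaled to library size by TMM, a trimmed mean over genes, and its 95% interval is an exact binomial one that covers counting error only. A gene was measured when it had at least 20 counts in at least 1 library, which held for 18074 genes and for all 9 genes followed, and was called when the ratio was at least 2-fold and the interval excluded 1. Over all measured genes the log2 ratio had a median of 0.00 for dE3 over WT, 0.00 for cKO over WT and 0.02 for dE3 over cKO. Genes of the labelled tissue were present throughout, with a summed level of 764 TPM in dE3, 824 TPM in cKO and 885 TPM in WT over 15 dorsal interneuron genes. Ctnnb1 had 16158 counts in dE3, 13936 in cKO and 17387 in WT, a gene total that also takes in reads from the exons left intact and from unrecombined cells and is therefore only a partial check of the labels. The library names carry the tag L2 for dE3 and WT and L3 for cKO, so that what this tag stands for cannot be told apart from the cKO genotype. With 1 library per genotype the ratios compare libraries, no spread between embryos is known and no p-value was computed.

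Sensory neuron RNA was present in each library, and by scaled counts 7 of the 9 genes were highest in cKO. The mainly ganglion genes Avil and Scn10a stood about 1.9-fold above WT in cKO and below WT in dE3, while Pou4f1 went the other way. By counts but not by TPM, Ntrk3 was below WT in cKO, and its interval in dE3 against WT included 1. The 4 mainly ganglion genes summed to 33.3 TPM in dE3, 61.4 TPM in cKO and 39.0 TPM in WT. Their summed counts gave a ratio of 0.762 (0.725 to 0.801) in dE3 against WT, 1.40 (1.34 to 1.46) in cKO against WT and 0.546 (0.521 to 0.571) in dE3 against cKO. Scn9a alone supplied 1959 of the 2892 summed counts in dE3, 2898 of 4995 in cKO and 2402 of 3458 in WT. Without it, a sum chosen after seeing the data, the ratio was 0.805 (0.737 to 0.880) in dE3 against WT, 1.92 (1.78 to 2.07) in cKO against WT and 0.419 (0.388 to 0.453) in dE3 against cKO. In bulk tissue, fewer cells of a type and less RNA per cell cannot be told apart.

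Against WT, 0 of the 9 genes were called higher in dE3, where 6.52% of all measured genes were, and 0 were called lower, where 3.78% of all were. In cKO against WT, 1 gene, Runx1, was called higher (3.5% of all measured genes) and 0 lower (3.41%). In dE3 against cKO, 0 were called higher (6.62%) and 2, Avil and Scn10a, lower (4.38%). These shares of all measured genes also apply to the gene lists below. The median log2 ratio of the 9 genes was -0.32 in dE3 against WT, 0.50 in cKO against WT and -0.72 in dE3 against cKO. All 3 comparisons draw on the same 3 libraries, so they are not independent of each other. The ratios of each gene are set side by side in the plot of ratios with intervals.

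**Figure D1:**
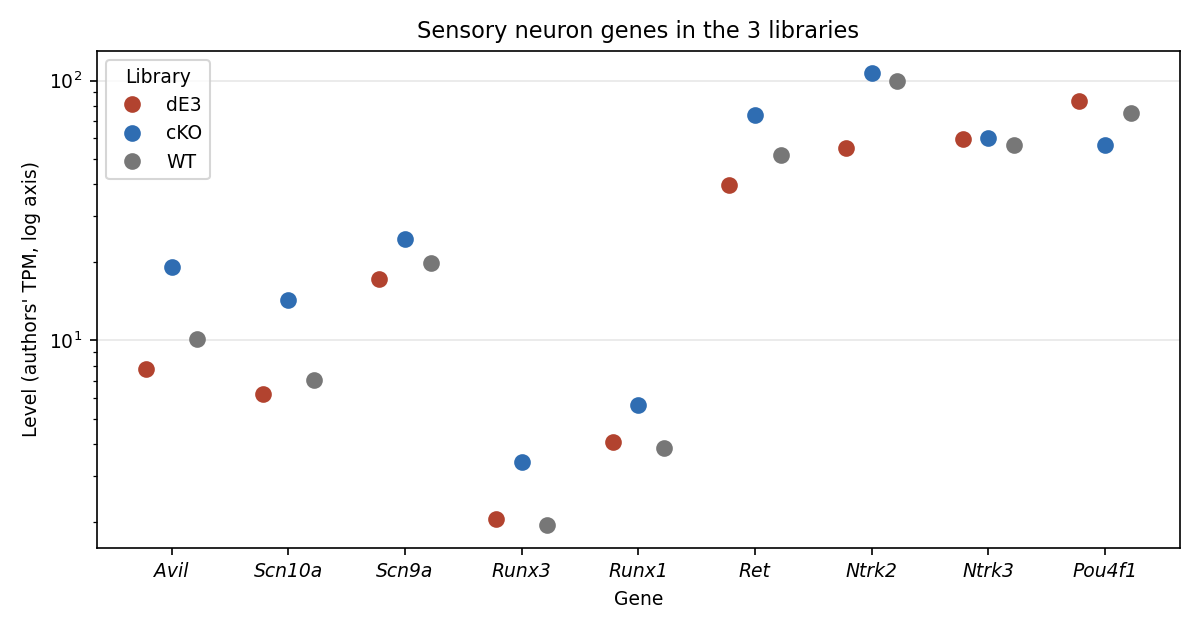
Level of each gene in each library, as the authors' TPM on a log axis; each point is 1 library (dE3 red, cKO blue, WT grey) and there are no error bars. Avil, Scn10a, Scn9a, Runx3, Runx1, Ret and Ntrk2 are highest in cKO, Pou4f1 is lowest in cKO, and Ntrk3 lies within 56.6 to 59.9 TPM.

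**Figure D2:**
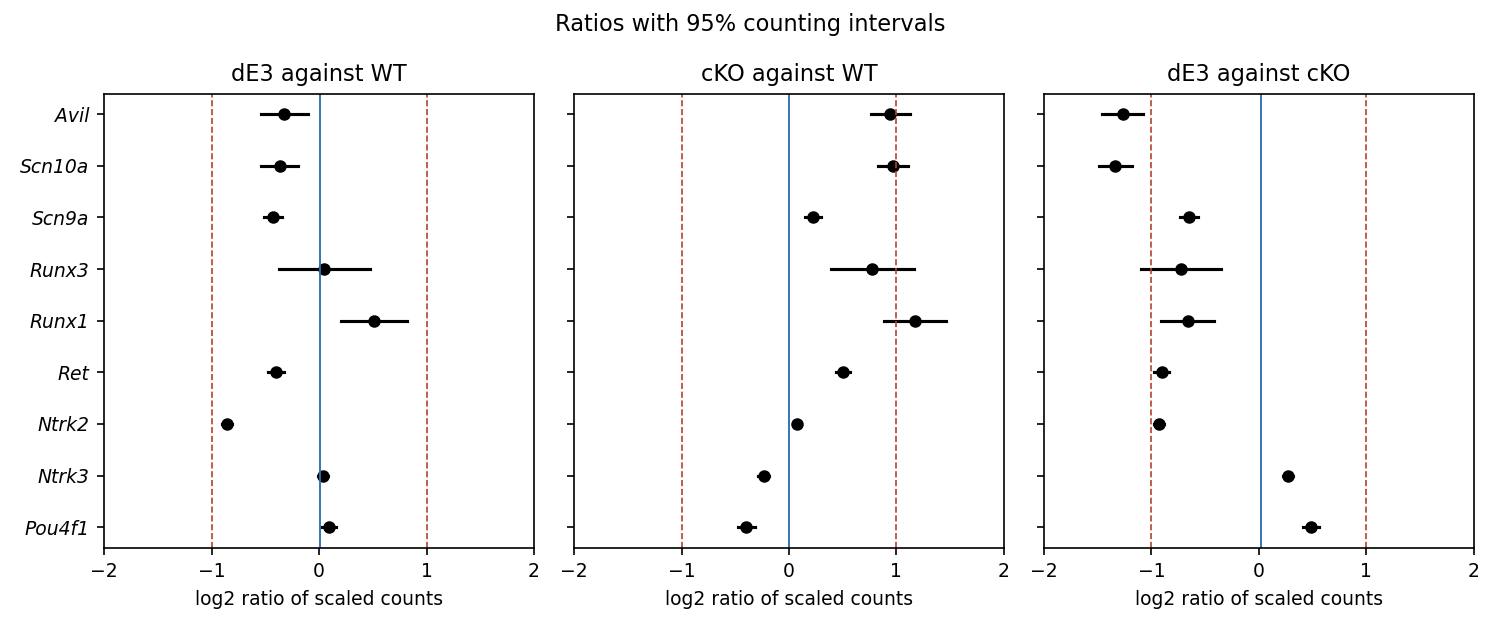
Log2 ratio of scaled counts for each gene in the 3 comparisons; points are the ratios, bars the 95% counting intervals, red dashed lines mark 2-fold and the blue line the median of all measured genes. In dE3 against cKO, 7 of the 9 genes lie below 0 and Avil and Scn10a lie past the 2-fold line.

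Scn10a (ENSMUSG00000034533, chr9:119608456-119719322, minus strand, GRCm38) had 505 counts in dE3, 1200 in cKO and 594 in WT. Its level was 6.24 TPM in dE3, 14.3 TPM in cKO and 7.05 TPM in WT. The cKO library therefore stood apart from the other two. The ratio was 0.775 (0.687 to 0.874) in dE3 against WT and 1.95 (1.77 to 2.16) in cKO against WT, and the count was 2.52-fold lower (2.27 to 2.80) in dE3 than in cKO. By the deposited TPM the cKO to WT ratio was 2.03, just past the 2-fold line that the counts did not reach. Nearly all counts were of the coding Scn10a-202, with 486 in dE3, 1159 in cKO and 566 in WT. Of all measured genes, 3.99% had a ratio at least as high in cKO against WT.

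Avil (ENSMUSG00000025432, chr10:127000709-127020994, plus strand) followed the same order, with 327 counts in dE3, 740 in cKO and 373 in WT, and 7.79 TPM, 19.2 TPM and 10.2 TPM in these libraries. Its ratio was 0.799 (0.687 to 0.930) in dE3 against WT and 1.92 (1.69 to 2.18) in cKO against WT, and it was 2.40-fold lower (2.11 to 2.74) in dE3 than in cKO. The TPM of Scn10a was 0.801 of that of Avil in dE3, 0.747 in cKO and 0.694 in WT, so Avil stood above Scn10a per length in each library. Both main Avil transcripts encode 819 codons. Avil-203 had 51 counts in dE3, 196 in cKO and 64 in WT, and Avil-201 had 275, 539 and 305. Avil shares 4.86% of its exonic bases with Tsfm on the opposite strand, and strand use in the counting is not given in the sources used here.

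Runx3 (ENSMUSG00000070691, chr4:135120652-135177990, plus strand) was the least abundant of the 9 genes, with 101 counts in dE3, 157 in cKO and 89 in WT, and 2.05 TPM, 3.42 TPM and 1.94 TPM. The cKO library was again highest, while dE3 and WT lay close together. The ratio was 1.03 (0.770 to 1.39) in dE3 against WT, an interval that includes 1, and 1.71 (1.31 to 2.24) in cKO against WT. Between the mutants, Runx3 was 1.65-fold lower (1.28 to 2.14) in dE3. The coding Runx3-201 held 94 of these counts in dE3, 145 in cKO and 83 in WT, and Runx3-202 held 6, 9 and 5.

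Scn9a (ENSMUSG00000075316, chr2:66480080-66634962, minus strand) had 1959 counts in dE3, 2898 in cKO and 2402 in WT, at 17.2 TPM, 24.5 TPM and 19.8 TPM. It followed the order of Scn10a with smaller differences. The ratio was 0.744 (0.700 to 0.790) in dE3 against WT and 1.17 (1.11 to 1.23) in cKO against WT, and the count was 1.57-fold lower (1.48 to 1.66) in dE3 than in cKO. The TPM of Scn10a was 0.363 of that of Scn9a in dE3, 0.584 in cKO and 0.355 in WT.

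The Scn9a total hid different transcripts. Scn9a-202, the main form with 1984 codons, had 1169 counts in dE3, 2639 in cKO and 2252 in WT, or 59.7%, 91.1% and 93.8% of the gene's counts. Scn9a-203, with 1973 codons, had 579 counts in dE3, 146 in cKO and 69 in WT, a 7.65-fold higher count (5.95 to 9.97) in dE3 than in WT. Scn9a-207, also with 1973 codons, had 176 counts in dE3, 68 in cKO and 51 in WT. The form that carried most Scn9a RNA was thus 2.11-fold lower (1.97 to 2.27) in dE3 than in WT while the less abundant forms were higher. Without Scn9a-202 the log2 ratio of the gene was 2.26 in dE3 against WT and 1.52 in dE3 against cKO, opposite in sign to the gene total. Of the 31-base words of Scn9a, 6.23% occur in other genes, with 4.64% in Scn3a, which had 8026 counts in dE3, 7203 in cKO and 8537 in WT. How shared reads were assigned is not given in the sources used here.

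**Figure D3:**
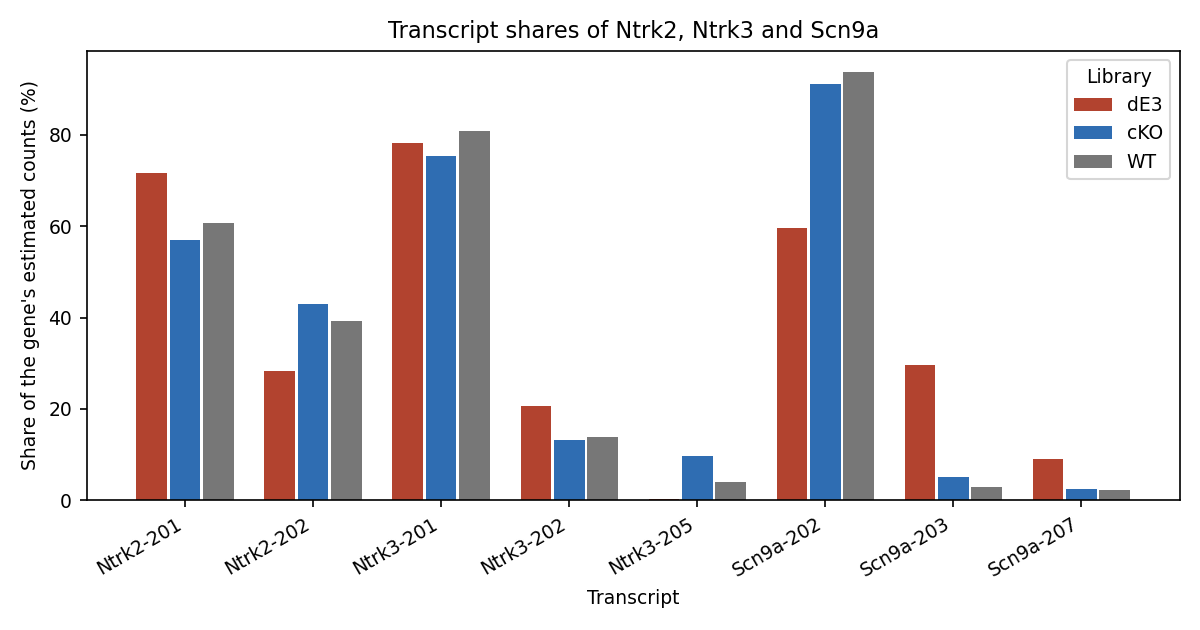
Share of each gene's estimated counts, in percent, held by 8 transcripts of Ntrk2, Ntrk3 and Scn9a; bars are single libraries (dE3 red, cKO blue, WT grey) without error bars. Ntrk2-202 takes 28.3% in dE3 against 39.2% in WT, and Scn9a-203 takes 29.6% in dE3 against 2.87% in WT.

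Runx1 (ENSMUSG00000022952, chr16:92601466-92826149, minus strand), the transcription factor of the nociceptor lineage, had 226 counts in dE3, 337 in cKO and 145 in WT. WT was lowest, and both mutant libraries were above it. The ratio was 1.42 (1.15 to 1.76) in dE3 against WT and 2.25 (1.85 to 2.75) in cKO against WT, the single call against WT among the 9 genes. The distal Runx1-201 had 93 counts in dE3, 181 in cKO and 69 in WT, and the proximal Runx1-202 had 88, 114 and 48. Runx1-203 had 45 counts in dE3, 40 in cKO and 21 in WT, or 19.9%, 11.9% and 14.5% of the gene's counts. By the deposited TPM, at 4.05 in dE3, 5.62 in cKO and 3.85 in WT, the cKO to WT ratio was 1.46, which ends the call. The short, incomplete Runx1-204 had 0 counts in both mutants, against 7 counts and 1.38 TPM in WT. Microglia and blood cells express Runx1 too, and the 12 measured microglia genes had a median log2 ratio of 0.04 in dE3 against WT, 0.29 in cKO against WT and -0.40 in dE3 against cKO, with sums of 103 TPM, 140 TPM and 104 TPM in dE3, cKO and WT. Among them 0 were called against WT and Aif1 and Spi1 were called lower in dE3 against cKO. Their part in the Runx1 values was not tested.

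Ret (ENSMUSG00000030110, chr6:118151745-118197718, minus strand), the receptor for the GDNF family of ligands, had 2584 counts in dE3, 4562 in cKO and 3111 in WT, at 39.6 TPM, 73.8 TPM and 51.6 TPM. It kept the order of Avil and Scn10a. The ratio was 0.757 (0.718 to 0.798) in dE3 against WT and 1.42 (1.36 to 1.49) in cKO against WT, and Ret was 1.87-fold lower (1.79 to 1.97) in dE3 than in cKO. The 1115-codon form Ret-201 held 18.6% of Ret counts in dE3, 16.5% in cKO and 17.4% in WT, and the 1073-codon form Ret-202 held the rest. Motor neurons express Ret as well, and the 10 measured motor neuron genes had medians of -0.51, 0.28 and -0.86 in the 3 comparisons in the same order, with 3 genes (Isl2, Prph and Slc18a3) called lower in dE3 against cKO and 0 called in the others. Their sums were 383 TPM in dE3, 791 TPM in cKO and 496 TPM in WT, the same order as Ret. Most of each sum came from Prph (159 TPM in dE3, 386 in cKO and 208 in WT) and Ngfr (90.8, 171 and 112 TPM). Neither gene is particular to motor neurons. The ratios of the list in cKO against WT were uneven, from 0.980 for Chat and 1.05 for Mnx1 to 1.44 for Slc18a3 and 1.84 for Prph. The part of motor neurons in the Ret values was not tested.

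Ntrk2 (ENSMUSG00000055254, chr13:58806596-59133970, plus strand), the receptor of BDNF, had 6199 counts in dE3, 11137 in cKO and 10228 in WT, at 54.8 TPM, 107 TPM and 99.9 TPM. The dE3 library stood apart, with cKO close to WT. Ntrk2 was 1.81-fold lower (1.75 to 1.87) in dE3 than in WT, short of a call, and had a ratio of 1.05 (1.03 to 1.08) in cKO against WT. The forms shown above differed from WT by unequal amounts. The kinase form Ntrk2-201 had 4447 counts in dE3, 6355 in cKO and 6216 in WT, and was 1.53-fold lower (1.48 to 1.59) in dE3 than in WT. The truncated form Ntrk2-202 had 1752 counts in dE3, 4782 in cKO and 4012 in WT, and was 2.51-fold lower (2.37 to 2.66) in dE3 than in WT. Its share of Ntrk2 counts was 28.3% in dE3, 42.9% in cKO and 39.2% in WT.

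The truncated receptor is the main Ntrk2 form of astrocytes. Over 10 astrocyte lineage genes, a list added after values were seen, the median log2 ratio was -0.93 in dE3 against WT, 0.04 in cKO against WT and -1.29 in dE3 against cKO. Of these genes 5 were called lower in dE3 against WT, where 3.78% of all measured genes were. The 5 were Aldh1l1, Aqp4, Hepacam, the GABA transporter gene Slc6a11 (705 counts in dE3, 5890 in cKO and 5124 in WT) and the growth factor receptor gene Fgfr3 (823, 2314 and 2062 counts). The list was not uniform, since 3 of the 10 lay above 0 in dE3 against WT, namely the glutamate transporter gene Slc1a2 (18365 counts in dE3, 9402 in cKO and 9344 in WT) and the transcription factor genes Nfia (3630, 2177 and 2502 counts) and Sox9 (1920, 1730 and 1542 counts). In cKO against WT Gjb6 was called higher (3.5% of all measured genes). In dE3 against cKO 6 were called lower (4.38%), the same 5 and Gjb6. Their sums were 375 TPM in dE3, 480 TPM in cKO and 504 TPM in WT. Their part in the Ntrk2 values was not tested.

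Ntrk3 (ENSMUSG00000059146, chr7:78175959-78738012, minus strand), the receptor of neurotrophin 3, had 8200 counts in dE3, 6401 in cKO and 7293 in WT, at 59.8 TPM, 59.9 TPM and 56.6 TPM. On the TPM scale the 3 libraries were nearly equal, and by counts cKO was lowest, where Avil was highest. The ratio was 1.03 (0.993 to 1.06) in dE3 against WT, an interval that includes 1, and 0.849 (0.821 to 0.878) in cKO against WT. By the deposited TPM the log2 ratio in cKO against WT was 0.08, opposite in sign to the -0.24 from counts. The kinase form Ntrk3-201 had 6419 counts in dE3, 4819 in cKO and 5898 in WT. The truncated form Ntrk3-202 had 1686 counts in dE3, 845 in cKO and 1005 in WT, a ratio of 1.53 (1.41 to 1.66) in dE3 against WT, so the truncated forms of the receptor genes differed in opposite directions in dE3. Ntrk3-205, with 839 codons, had 26 counts in dE3, 625 in cKO and 289 in WT.

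Pou4f1 (ENSMUSG00000048349, chr14:104461676-104467999, minus strand), also known as Brn3a, is a transcription factor of all early sensory neurons and of dorsal interneurons of the cord. It had 3749 counts in dE3, 2521 in cKO and 3209 in WT, at 83.7 TPM, 56.6 TPM and 75.2 TPM. The cKO library was lowest, where Avil and Scn10a were highest. The ratio was 1.07 (1.02 to 1.12) in dE3 against WT and 0.760 (0.721 to 0.801) in cKO against WT, and 1.40 (1.33 to 1.47) in dE3 against cKO. The coding Pou4f1-201 had 3424 counts in dE3, 2334 in cKO and 2958 in WT, and the noncoding Pou4f1-202 had 325, 187 and 251. The 15 dorsal interneuron genes had medians of -0.21 in dE3 against WT, -0.13 in cKO against WT and 0.02 between dE3 and cKO, with 1 called lower against WT in dE3 (Lmx1b), 0 called in cKO against WT and 1 called lower in dE3 against cKO (Barhl1). Their part in the Pou4f1 values was not tested.

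Set by level per length, Pou4f1 led the 9 genes in dE3 at 83.7 TPM, whereas Ntrk2 led in cKO at 107 TPM and in WT at 99.9 TPM. The lower end had one order throughout, with Scn9a above Avil, then Scn10a, Runx1 and Runx3. The TPM of Ntrk2 was 0.917 of that of Ntrk3 in dE3, 1.78 in cKO and 1.77 in WT, so Ntrk3 stood above Ntrk2 in dE3 and below it in cKO and WT.

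A list of 15 other genes of ganglion neurons showed the order of Avil and Scn10a more widely. Of these, 12 were measured; Trpm8 had 2, 4 and 9 counts in dE3, cKO and WT, and Mrgprd and Mrgpra3 had 0 in each library, which allows up to 3 counts. Their median log2 ratio was -0.35 in dE3 against WT, 0.76 in cKO against WT and -1.10 in dE3 against cKO, and they summed to 123 TPM in dE3, 265 TPM in cKO and 151 TPM in WT. Against WT, 2 were called higher in cKO (3.5% of all measured genes) and 0 lower (3.41%). Among the higher ones was the irritant receptor gene Trpa1, with 8 counts in dE3, 22 in cKO and 6 in WT. Trpa1 counted as measured through cKO alone, so its calls rest on the library that let it pass. In dE3 against WT, 1 gene was called lower (3.78% of all measured genes) and 0 were called higher (6.52%). The lower one was the sodium channel gene Scn11a, with 9 counts in dE3, 21 in cKO and 27 in WT.

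Between the mutants, 7 of these 12 genes were called lower in dE3 against cKO, where 4.38% of all measured genes were, and 0 higher, and all 12 lay below 0. The capsaicin receptor gene Trpv1, with 84 counts in dE3, 267 in cKO and 134 in WT, was 3.37-fold lower (2.63 to 4.36) in dE3 than in cKO. Prdm12, a regulator of nociceptor fate, had 406 counts in dE3, 1160 in cKO and 706 in WT and was 3.03-fold lower (2.71 to 3.40) in dE3 than in cKO. P2rx3, an ATP-gated channel, Gfra3, the artemin co-receptor, and Scn11a were also among the 7, as was Trpa1, which was measured through cKO alone. Piezo2, the touch channel (1188 counts in dE3, 1363 in cKO and 776 in WT), and the transcription factor gene Pou4f3 had log2 ratios of -0.28 and -0.35 between the mutants. Pou4f2, which retinal ganglion cells also express, had 572 counts in dE3, 634 in cKO and 712 in WT. Whether cells of the cord also express these 12 genes, Prdm12 and Pou4f2 included, was not tested.

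A further 16 genes that ganglia and cord share, all measured, had medians of -0.43 in dE3 against WT, 0.13 in cKO against WT and -0.56 between dE3 and cKO. None were called against WT in either mutant, and in dE3 against cKO 3 were lower and 1 higher. The lower ones were the intermediate filament genes Prph (3964 counts in dE3, 9127 in cKO and 4801 in WT) and Nefh (805, 1791 and 1252) and the transcription factor gene Isl2 (484, 1029 and 641). Peripheral axons and motor neurons both express them. The higher one was the netrin receptor gene Dcc, with 10124 counts in dE3, 4695 in cKO and 4891 in WT.

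The partners of the 9 genes in the same pathways were less uniform. The 19 measured neurotrophin and GDNF pathway genes had a median of 0.04 in dE3 against WT. Of these, 4 were called higher (6.52% of all measured genes) and 0 lower (3.78%). Among them were the ligand genes Gdnf (33 counts in dE3, 18 in cKO and 14 in WT), Nrtn (43, 23 and 16) and Artn (36, 29 and 10), each with few counts. Gdnf counted as measured through dE3 alone. In cKO against WT 2 were higher (3.5% of all), Artn among them, and 0 lower (3.41%), with a median of 0.23. In dE3 against cKO 1 was higher (6.62% of all) and 2, Gfra3 among them, were lower (4.38%), and the median was -0.02. The shared neurotrophin receptor Ngfr, which glia and motor neurons also express, had 4396 counts in dE3, 7895 in cKO and 5025 in WT.

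The other sodium channel genes lay nearer to WT in cKO than Scn10a did. Of 11 measured sodium channel genes other than Scn9a and Scn10a, the median log2 ratio was -0.24 in dE3 against WT, -0.05 in cKO against WT and -0.37 in dE3 against cKO. Against WT, Scn11a was called lower and Scn4a, the muscle channel gene, higher in dE3 (21 counts in dE3 and 0 in both cKO and WT), and the same genes were called between the mutants. Scn4a was measured through dE3 alone, so its calls rest on the library that let it pass. Its deposited TPM was 0 in dE3, cKO and WT alike, so the TPM shows no difference. In cKO against WT 0 were called. Scn3a, the most abundant, had log2 ratios of -0.22, -0.29 and 0.07 in the 3 comparisons. Of 6 RUNX and POU4 partners and relatives, 1 was called higher in dE3 against WT and against cKO, namely Runx2 with 538 counts in dE3, 75 in cKO and 48 in WT, and 0 in cKO against WT. Their medians were 0.04 in dE3 against WT, -0.01 in cKO against WT and 0.01 between dE3 and cKO, and Cbfb, the DNA-binding partner of RUNX proteins, had 2375 counts in dE3, 2218 in cKO and 2155 in WT.

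Glia of ganglia and nerve roots give a second readout of peripheral tissue. Of 12 measured Schwann, satellite glia and neural crest genes, 11 lay above 0 in cKO against WT with a median of 0.50, against 7 above 0 in dE3 against WT with a median of 0.16. Sox10, the crest and glial transcription factor, had 595 counts in dE3, 1104 in cKO and 602 in WT. Called genes were few, with Egfl8 higher in cKO against WT, Fabp7 lower in dE3 against WT, and Fabp7 and Gjc3 lower in dE3 against cKO, where the median was -0.51. Fabp7, which radial glia of the cord express at a high level, sets the sums of this list (616 TPM in dE3, 1297 TPM in cKO and 1487 TPM in WT).

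Sympathetic ganglia, which lie near the dorsal root ganglia and read Ret, were looked for through 8 genes. Th, which a class of sensory neurons also expresses in the adult mouse, had 301 counts in dE3, 818 in cKO and 444 in WT. The defining genes Dbh and Hand2 were scarce, with 40 and 31 counts in dE3, 0 and 0 in cKO, and 12 and 0 in WT. The list median was -0.42 in dE3 against WT (3 higher, 1 lower), 0.46 in cKO against WT (1 higher, 2 lower) and -0.54 in dE3 against cKO (3 higher, 2 lower), and its sums were 26.9 TPM, 55.5 TPM and 37.8 TPM in dE3, cKO and WT. Of all measured genes, 6.52% were higher and 3.78% lower in dE3 against WT, and 3.5% and 3.41% in cKO against WT. Between the mutants these shares were 6.62% and 4.38%. Slc18a1 was called higher in both mutants against WT, with 22 counts in dE3, 25 in cKO and 5 in WT. Of the 8 genes, 5 lay above 0 in cKO against WT and 2 below. Besides Th and Slc18a1, those above 0 were Phox2a (110 counts in dE3, 199 in cKO and 139 in WT), Gata3 (141 in dE3, 294 in cKO and 230 in WT) and Ddc (47 in dE3, 78 in cKO and 55 in WT), none of which was called against WT. Th, Phox2a, Gata3 and Ddc were thus highest in cKO and lowest in dE3, as were Avil and Scn10a, and their part in the ganglion values was not tested.

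**Figure D4:**
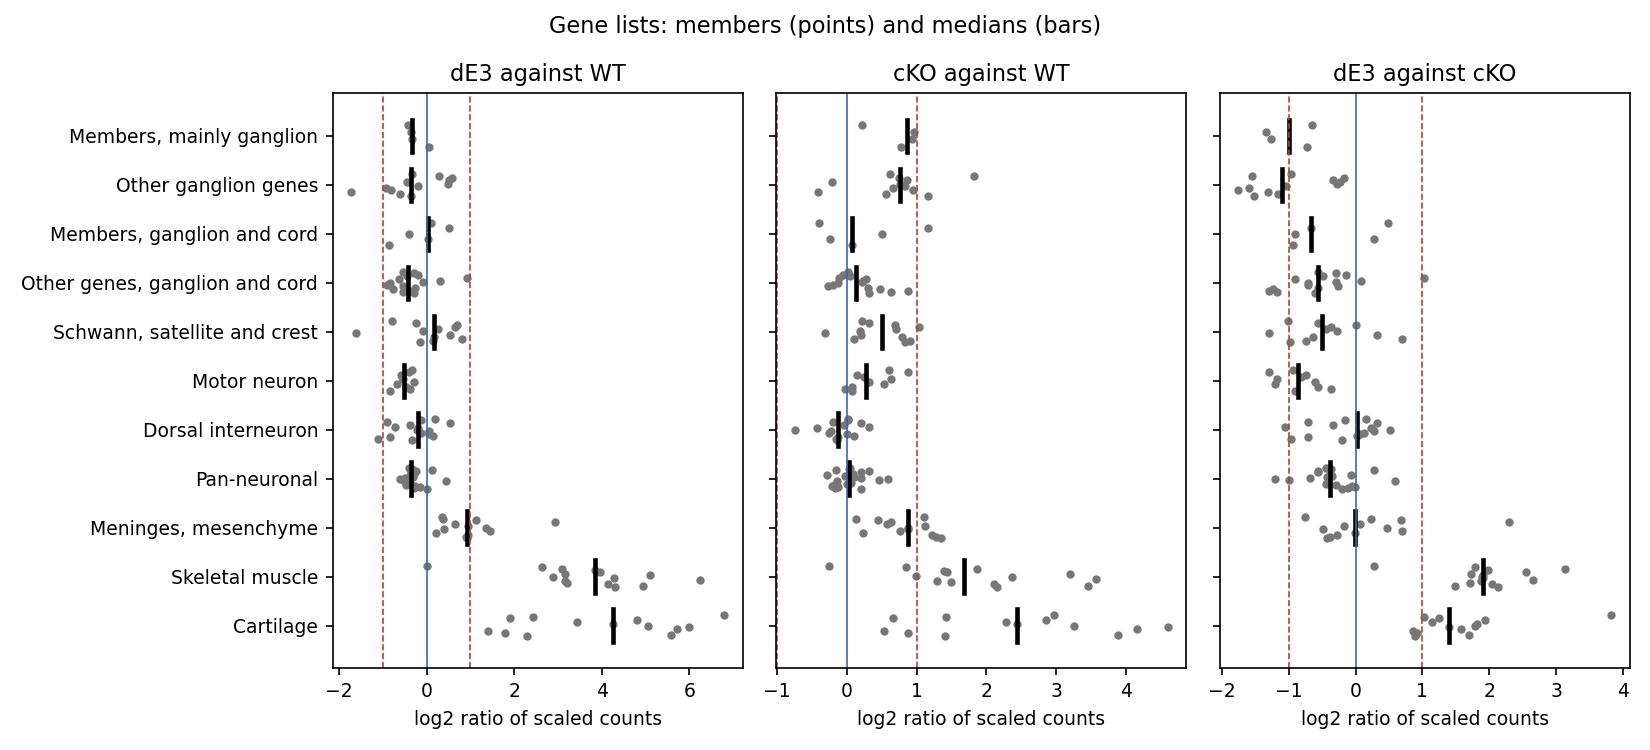
Log2 ratios of scaled counts in the 3 comparisons for 11 gene lists; grey points are measured genes, black bars list medians, red dashed lines 2-fold and the blue line 0, with a different axis range in each panel. Ganglion genes lie highest in cKO (medians 0.86 and 0.76 against WT), whereas muscle and cartilage genes lie highest in dE3 (medians 3.85 and 4.26 against WT). In cKO against WT, meninges and mesenchyme (0.87), muscle (1.68) and cartilage genes (2.44) have medians above 0 too.

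Other tissues next to the cord did not follow the order of the ganglion genes. Skeletal muscle genes, 15 measured, had a median of 3.85 in dE3 against WT (14 higher, 0 lower), 1.68 in cKO against WT (11 higher, 0 lower) and 1.91 in dE3 against cKO (14 higher, 0 lower). They summed to 332 TPM in dE3, 89.8 TPM in cKO and 27.5 TPM in WT. Cartilage genes, 13 measured, had medians of 4.26 in dE3 against WT (13 higher), 2.44 in cKO against WT (10 higher) and 1.40 between dE3 and cKO (10 higher), with 0 lower in each comparison. They summed to 805 TPM in dE3, 363 TPM in cKO and 153 TPM in WT. Meninges and mesenchyme genes, 13 measured, had medians of 0.91 (4 higher), 0.87 (5 higher) and -0.02 (1 higher) in the same comparisons, 0 lower in each, and sums of 883 TPM in dE3, 937 TPM in cKO and 492 TPM in WT. Muscle and cartilage RNA was thus most abundant in dE3, where Avil, Scn10a, Scn9a and Ret were lowest, and the part of carried tissue in the ganglion values was not tested.

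Most pan-neuronal genes were also lower in dE3 than in WT, with 17 of 20 below 0 and 3 above. Those above were Tubb3, the most abundant of the list, Map2 (50169 counts in dE3 and 33544 in WT) and Celf3. The 20 pan-neuronal genes had medians of -0.35 in dE3 against WT, 0.03 in cKO against WT and -0.38 in dE3 against cKO, with 0 called against WT and Nefm called lower between the mutants. The 15 housekeeping genes had medians of 0.06, 0.07 and -0.10 in the same order, with 0 called. Scaled to the summed counts of the pan-neuronal genes, the ratio of Avil was 0.947 in dE3 against WT and that of Scn10a 0.918, against 0.799 and 0.775 under TMM. In cKO against WT the same scaling left Avil at 1.80, Scn10a at 1.83, Runx3 at 1.60 and Runx1 at 2.11. Between the mutants, Avil and Scn10a had ratios of 0.527 and 0.502 per neuronal RNA, just inside the 2-fold line, and Ntrk2 had 0.664. This scaling moves the median of all measured genes to 0.25 in dE3 against WT, -0.09 in cKO against WT and 0.36 in dE3 against cKO on the log2 scale, and the share of higher genes among all calls to 79.6%, 40.9% and 83.4%, against 63.3%, 50.6% and 60.2% under TMM.

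Of 11911 genes with at least 100 counts in each library, 32 lay within 0.1 of the 4 mainly ganglion genes together in the plane of log2 ratios, which were -0.39 in dE3 against WT and 0.48 in cKO against WT for the summed counts. The nearest were Bok (731 counts in dE3, 1250 in cKO and 868 in WT), Dnah9 (261, 452 and 310) and Pcdh11x (1006, 1754 and 1217). Scn9a holds most of that sum, and the likeness rests on 3 libraries and is a description.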

How the data were processed

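Spinal cord RNA was extracted with Trizol and made into libraries with a VAHTS mRNA-seq V2 kit, as the labels' protocols state. CASAVA, Bowtie2 2.3.2 and GRCm38.p6 are listed in the submitters' processing notes; which tool quantified the reads, with which annotation and strand setting, is not given in the sources used here. The authors deposited estimated counts (expected counts, as whole numbers) per gene and per transcript, with TPM and FPKM values beside them, per the file headers. The deposited FPKM values were not used here, and the TPM values of the authors gave levels and an alternative measure.

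TMM factors from edgeR 4.0.16 (R 4.3.3) scaled the estimated counts and were 1.01 for dE3, 0.999 for cKO and 0.993 for WT. Ratios had exact conditional (Clopper-Pearson) 95% intervals, which cover counting error only, since the reads carried no molecular identifiers and several may come from 1 molecule. Measured genes had 20 counts or more in 1 library or more, and a floor of 3 counts stood for a count of 0. A gene of few counts can pass through 1 library alone, and its call then rests on that same count. Calls were also run on simulated counts that held counting error only, as the interval does. Such counts carry no spread between embryos or libraries, so they cannot test the calls against it. The genes and 18 lists were chosen with earlier results of these data known, and 1 list (astrocyte lineage) was added after values were seen. Named are the 9 genes, list genes that were called or among the 4 of highest mean TPM, further list genes chosen after their values were seen, the 3 genes of nearest pattern, and transcripts above 5% of a gene's counts. Some genes that this rule selects are not reported here, though list counts and medians include them. Shared sequence was measured with 31-base words of GENCODE vM21 transcripts. Coordinates are on GRCm38. Other scalings, the TPM, the gene total without its most different transcript, other count minimums and a 1.5-fold threshold were tried.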

Additional observations from a re-analysis of the deposited data

How the results depend on the processing

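Over 27 pairs of gene and comparison, 6 alternatives of scaling and measure gave 162 ratios for the 9 genes, of which 102 moved by less than the counting interval, 60 moved further and 11, in 7 pairs, had another sign than under TMM. Relative log expression factors and library totals alone moved neither a median nor a count of called members past these limits. Scaled to pan-neuronal genes, the median log2 ratio of the 9 genes was -0.079 in dE3 against WT and 0.41 in cKO against WT, and the genes called lower in dE3 against cKO numbered 0. Scaled to housekeeping genes, the median in cKO against WT was 0.37, while the median of all genes was -0.13. Without each gene's most different transcript, the median in dE3 against WT was -0.082, and 1 gene, Scn9a, was called higher in dE3 against WT and 1 in dE3 against cKO. In cKO against WT the called gene was then Avil (log2 ratio 1.52), with Runx1 at 0.99, and by TPM it was Scn10a (1.02), with Runx1 at 0.55. At a 1.5-fold threshold, 1 gene was lower in dE3 against WT, 4 were higher in cKO against WT and 7 lower in dE3 against cKO. The causes were not tested. Under no alternative was the median of the 9 genes opposite in sign to that under TMM.

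The background counts moved more. Over all genes, 1178 were higher and 683 lower in dE3 against WT, 632 higher and 617 lower in cKO against WT, and 1196 higher and 792 lower between dE3 and cKO. With at least 100 counts these were 636 and 246, 257 and 144, and 555 and 357. With no count filter they were 1686 and 1224, 1044 and 1124, and 1839 and 1244. At 1.5-fold they were 2052 and 1447, 1302 and 1206, and 2259 and 1722. Without the most different transcript they were 1490 and 1189, 1063 and 1293, and 1647 and 1247. Scaled to pan-neuronal genes they were 1714 and 439, 520 and 752, and 2180 and 435, and scaled to housekeeping genes the share of higher genes in cKO against WT was 37.8%.

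No paired analysis was possible because each genotype had 1 library. Runx3 and Runx1, with 89 to 337 counts, have the widest counting intervals of the 9 genes, and differences between embryos, dissections or libraries cannot be seen with 1 library per genotype.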
